A study of Mus musculus with 9 samples.

Results

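The genes described here were 10 transcription factors and coregulators that set and hold adipocyte identity, namely Cebpa, Cebpb, Cebpd, Klf9, Klf11, Klf15, Ebf1, Ebf2, Prdm16 and Tle3. They were chosen by gene symbol, and all 10 were listed in each of the 3 deposited comparison tables, out of 16937 genes in any table. RNA was taken from brown adipose tissue of 9 mice, 3 in each of 3 groups. WT RT mice were wild type and stayed at 23 °C, WT Cold mice were wild type and spent 8 h at 4 °C, and GCN2 KO Cold mice carried a whole-body Gcn2-/- deletion and spent the same 8 h at 4 °C. All were male or female adults of 12 to 23 wk on the C57Bl/6J background, housed singly for 5 days at 23 °C beforehand. No GCN2 KO group at room temperature was analysed here, so the effect of genotype without cold was not measured, and a whole-body deletion does not separate brown fat from other tissues. The WT RT library codes begin with other letters than the codes of the cold libraries, and what the letters stand for is not given in the sources used here, so whatever they mark and cold cannot be told apart.

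Adipocytes form when C/EBPβ and C/EBPδ come on early and induce C/EBPα, which together with the nuclear receptor PPARγ maintains the mature state. Krüppel-like factors (KLFs) act around this cascade, and KLF9 and KLF15 are also known targets of the glucocorticoid receptor. EBF2 and the coregulator PRDM16 direct precursors to the brown fate, whereas TLE3, a corepressor of the Groucho family, opposes PRDM16 and favours lipid-storing gene programmes. In brown fat, cold acts through noradrenaline and cAMP, whose response element (CRE) carries the half-site TGACG.

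The wild-type response to cold split the 10 factors into 3 sets. Cebpb, Cebpd, Klf9, Klf15 and Tle3 were higher after cold, Cebpa was lower, and Klf11, Ebf1, Ebf2 and Prdm16 did not pass the test. Cebpa, Cebpb, Cebpd, Klf9 and Klf15 differed from WT RT in the same direction in the libraries labelled GCN2 KO Cold. In the limma fit of both cold groups no factor passed the test, and the widest gap was in Tle3, whose level in the libraries labelled GCN2 KO Cold lay below every WT Cold library.

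Because 5 of the factors moved up and Cebpa moved down, the bases just before their start sites are shown first. Of the 10 genes, 8 had a promoter window in RefSeq (GRCm38.p6), which spans 250 bases before to 50 bases after the start site. Windows of Cebpd and Ebf2 were not used here. The 120 bases that end just before the start site follow for Cebpa and for the 4 higher genes with a window, all 5′ to 3′ on the + strand. Capitals mark TGACG or its reverse complement CGTCA, and in Cebpa the TATA box TATAAA.
Cebpa (chr7:35119173-35119292): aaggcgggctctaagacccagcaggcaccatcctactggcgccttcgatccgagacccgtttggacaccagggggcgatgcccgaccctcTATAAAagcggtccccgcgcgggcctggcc
Cebpb (chr2:167688795-167688914): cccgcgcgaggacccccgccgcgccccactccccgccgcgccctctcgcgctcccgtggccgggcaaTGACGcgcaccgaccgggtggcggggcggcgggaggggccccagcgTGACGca
Klf9 (chr19:23141106-23141225): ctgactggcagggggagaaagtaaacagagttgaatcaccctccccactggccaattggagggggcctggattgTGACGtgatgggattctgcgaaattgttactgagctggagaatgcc
Klf15 (chr6:90462456-90462575): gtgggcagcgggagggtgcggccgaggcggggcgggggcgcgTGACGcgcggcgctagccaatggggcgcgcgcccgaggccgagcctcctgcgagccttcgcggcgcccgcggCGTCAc
Tle3 (chr9:61372246-61372365): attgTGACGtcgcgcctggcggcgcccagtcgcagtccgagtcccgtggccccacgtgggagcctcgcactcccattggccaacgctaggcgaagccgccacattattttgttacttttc

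The half-site TGACG, read on both strands, lay before the start site in Cebpb, Klf9, Klf15 and Tle3. These were 4 of the 8 genes with a window. Of all 32851 RefSeq mouse windows, of which a gene can have several, 17.8% held it before the start site. In Cebpb it began 180, 53 and 7 bases before the start site, in Klf9 46 bases, in Klf15 78 and 6 bases, and in Tle3 116 bases. No match lay before the start site in the windows of Cebpa, Klf11, Ebf1 or Prdm16. For Ebf1, the window at chr11:44619978-44620277 held a match 22 bases after its start site, and that at chr11:44617850-44618149 held none. The full element TGACGTCA, present in 1.79% of all windows, was in none of the 8 genes. TATAAA, present in 13.6% of all windows, began 30 bases before the start site of Cebpa and 21 bases after that of Cebpb. A match says only that these letters occur in the window, and binding was not measured. The shares are over all windows, not matched to these genes in base content, and enrichment was not tested.

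Eif2ak4, which encodes GCN2, was checked before any difference was read by genotype. It was at 11.1, 12.6 and 13.0 CPM (reads of a gene per 1000000 reads on listed genes) in WT RT, at 6.46, 8.31 and 8.34 CPM in WT Cold, and at 11.9, 12.7 and 11.8 CPM in the libraries labelled GCN2 KO Cold. The gene was therefore not at a lower level under the knockout label than in the wild-type cold libraries, with a log2 fold change of 0.78 for GCN2 KO Cold against WT Cold (SE 0.15, adjusted p = 0.0932 with limma and 0.0028 with DESeq2). A count over all exons does not show whether the deleted part was read, so the label could not be checked from this gene. Libraries held 27058799 to 30768064 reads, and the 3 of each group are lettered A to C by the order of their codes. Summed CPM of 7 brown adipocyte markers ranged from 19227.5 to 20991.8 in WT RT, from 24867 to 26680.3 in WT Cold and from 29255 to 30235 in the libraries labelled GCN2 KO Cold, so that these genes were abundant in every library.

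In bulk tissue, fewer cells of a type and less RNA per cell cannot be told apart. Summed levels of 8 skeletal muscle markers were 1974 to 2350.0 CPM in WT RT, 1827 to 3022 CPM in WT Cold and 228 to 1039 CPM in the libraries labelled GCN2 KO Cold, lowest in library C of both cold groups. Those of 7 macrophage and monocyte markers were 316 to 556 CPM, 141 to 212 CPM and 105 to 165 CPM in the same order, and those of 8 preadipocyte and stromal markers 583 to 733 CPM, 505 to 586 CPM and 337 to 458 CPM. Those of 5 endothelial markers were 499 to 551 CPM, 584 to 719.7 CPM and 471 to 574 CPM, so that every WT Cold library was above every library of the other groups, as for Tle3. Singly, these 5 markers did not all move alike. In WT Cold against WT RT 2 passed the test, both higher, with log2 fold changes from -0.21 to 0.66 over the 5. In GCN2 KO Cold against WT Cold 0 passed, with values from -0.33 to 0.06. B cell markers, of interest because Ebf1 also directs B cells, summed to between 4.41 and 6.67 CPM in all 9 libraries. Every marker of these lists was among the listed genes, though in GCN2 KO Cold against WT Cold only 5 of the 6 B cell markers were tested. The part of the muscle, macrophage, stromal and endothelial lists in the differences below was not tested.

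**Figure D1:**
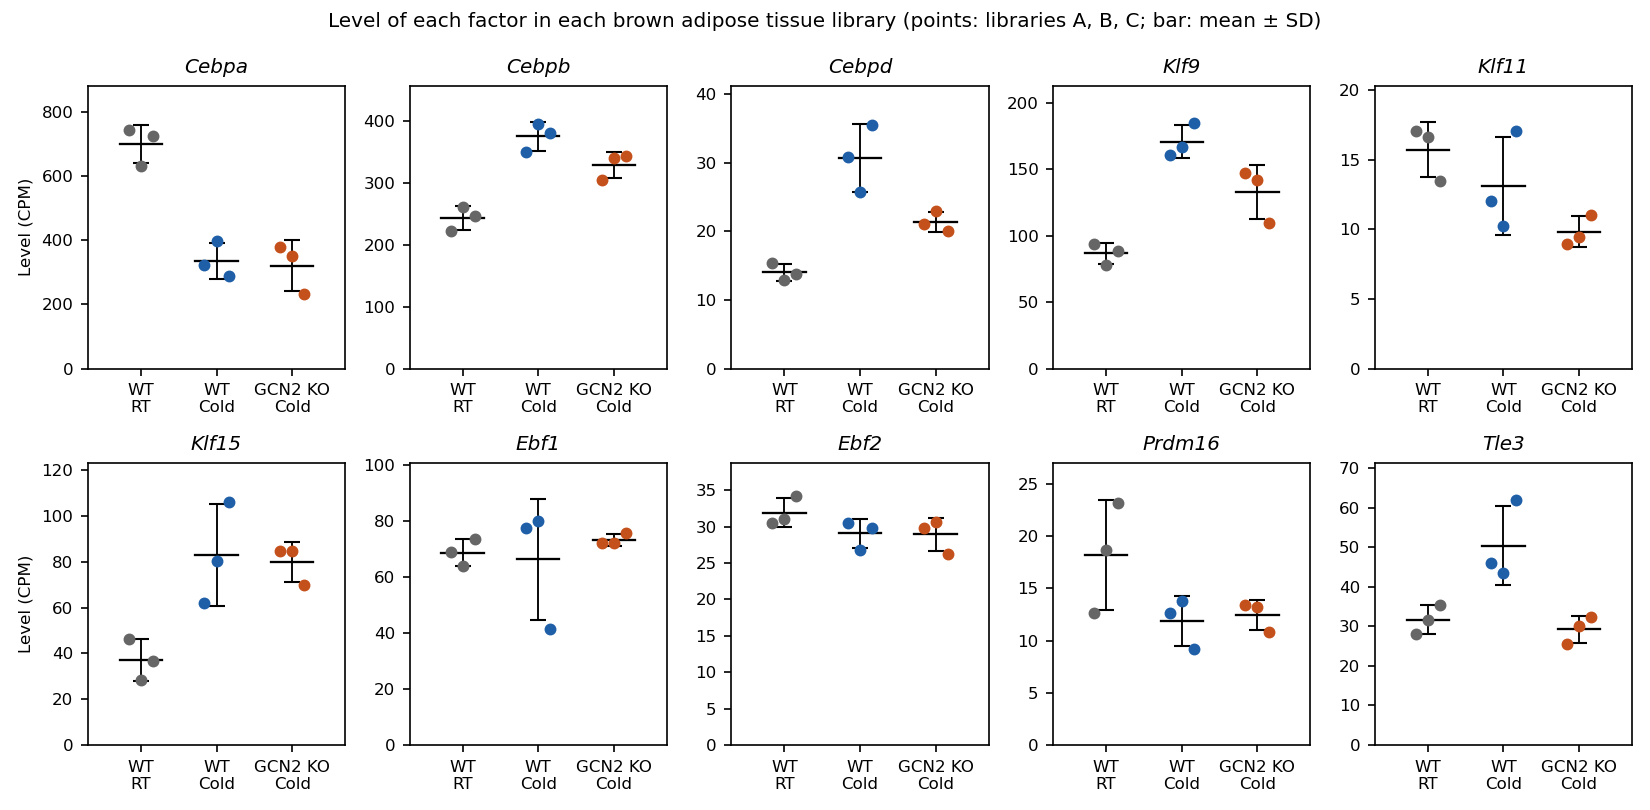
Level of each factor (CPM, y axis, from 0) in libraries A, B and C of each group (x axis, points from left to right), with the mean and SD of 3 libraries as black bars. Cebpa fell from 632 to 743 CPM in WT RT to 288 to 398 CPM in WT Cold, and Tle3 stood at 43.4 to 62.0 CPM in WT Cold, above every library of the other groups.

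Cebpa and Cebpb were by far the most abundant of the 10, and they exchanged first place in the cold. Levels between genes are compared per kilobase of merged exon. In WT RT, Cebpa stood at 266 ± 22.5 CPM per kb (SD, n = 3) and Cebpb at 162 ± 12.6 CPM per kb. In WT Cold, Cebpb stood at 249 ± 15.5 CPM per kb and Cebpa at 128 ± 21.4 CPM per kb. In the libraries labelled GCN2 KO Cold, Cebpb was at 219 ± 14.2 CPM per kb and Cebpa at 122 ± 29.9 CPM per kb. In every group the ranges of this pair were apart, and their mean levels lay above those of 97.6% to 98.9% of the 16572 genes with a length and a value in all libraries.

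Klf9 and Klf15 came next in all 3 groups, at 18.0 ± 1.63 and 13.3 ± 3.26 CPM per kb in WT RT and at 35.4 ± 2.58 and 29.7 ± 7.96 CPM per kb in WT Cold, and the libraries of this pair overlapped in each group. In WT RT the order went on with Ebf1 (7.03 ± 0.495 CPM per kb), Ebf2 (4.61 ± 0.292), Cebpd (3.75 ± 0.332), Klf11 (3.62 ± 0.451), Tle3 (2.72 ± 0.311) and Prdm16 (1.95 ± 0.565). There Cebpd overlapped Klf11, and Tle3 overlapped Prdm16. In WT Cold, Cebpd at 8.20 ± 1.32 CPM per kb came after Klf15, overlapping Ebf1 at 6.78 ± 2.20, and Tle3 at 4.33 ± 0.863 overlapped Ebf2 at 4.20 ± 0.283. Prdm16 was the lowest of the 10 in all 3 groups.

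To see which factors moved with acute cold in wild-type brown fat, WT Cold was compared with WT RT by limma on log2(normalized count + 1), with adjusted p under 0.05 as the threshold. Of the 10 factors, 6 passed, 5 higher and 1 lower, against 27.7% of the 16679 genes tested (13.6% higher and 14.1% lower). The median log2 fold change was 0.34 over the 10 and 0.003 over all genes. With an absolute log2 fold change over 1 required as well, 3 were called, Cebpd, Klf9 and Klf15, against 8.14% of all genes. On the CPM scale Klf9 was at 0.98 and no longer called, and Cebpa at -1.07 (adjusted p = 0.00106 with limma) was. Groups did not overlap for the same 6 factors, as for 45.5% of all genes. The scale matters for small values and for values near a threshold. On the log2 scale, normalization within a table put the median of all genes above that of plain CPM. The gap was 0.08 in WT Cold against WT RT. It was 0.12 in GCN2 KO Cold against WT Cold and 0.20 in GCN2 KO Cold against WT RT. The 3 libraries of a group came from separate mice, whose sex and litter are not given per library. The p-values set a group difference against the spread between libraries, moderated over all genes.

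Cebpa, which drives the mature adipocyte programme, was at 743, 632 and 724 CPM in WT RT and at 322, 398 and 288 CPM in WT Cold. Every cold library lay below every room temperature library, a 1.98-fold lower level (log2 fold change -0.98, SE 0.13, adjusted p = 0.00185 with limma). Cebpb, an early activator of adipogenesis that also responds to cAMP, was at 223, 260.3 and 246 CPM in WT RT and at 349, 395 and 381 CPM in WT Cold. All cold libraries were higher, by 1.64-fold (log2 fold change 0.71, SE 0.09, adjusted p = 0.00178 with limma). Cebpd, the partner of Cebpb early in differentiation, was at 15.4, 13.0 and 13.7 CPM in WT RT and at 30.9, 25.7 and 35.5 CPM in WT Cold. Its groups were apart and its rise was larger, 2.30-fold (log2 fold change 1.20, SE 0.15, adjusted p = 0.00131 with limma).

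The opposite movement of Cebpa and Cebpb is summed up by their ratio per length, which does not depend on how libraries were scaled. Cebpb:Cebpa was 0.525, 0.722 and 0.595 in WT RT and 1.90, 1.74 and 2.32 in WT Cold. The ratio was 3.24-fold higher in WT Cold with no overlap (two-sided exact permutation test, p = 0.1, the smallest that 3 libraries against 3 allow). In the libraries labelled GCN2 KO Cold it was 1.41, 1.69 and 2.60, which overlapped WT Cold (p = 0.7, exact permutation test) and lay above WT RT (p = 0.1, again the smallest possible). The highest ratio in each cold group was in library C.

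**Figure D2:**
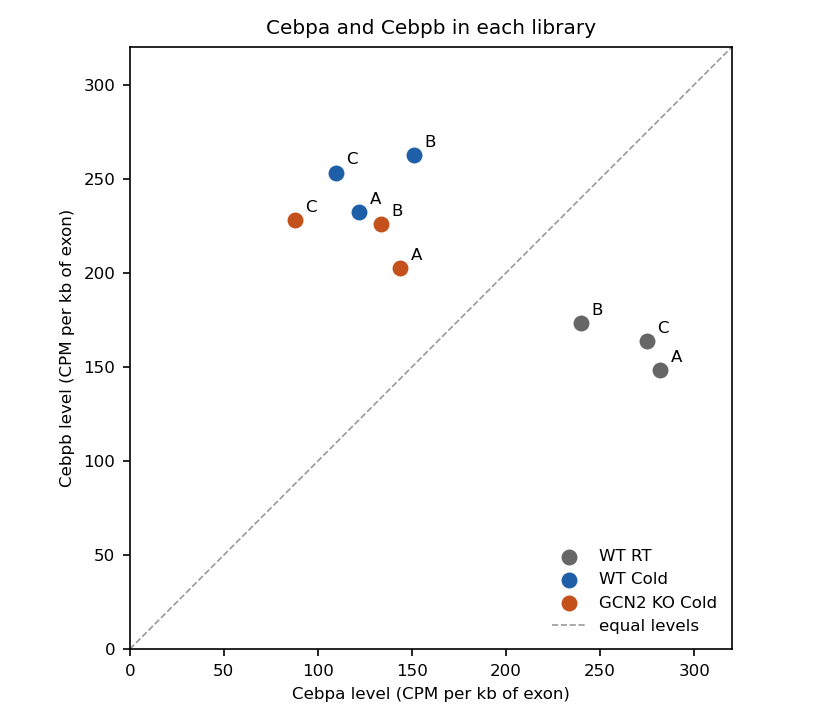
Cebpb level (y axis) against Cebpa level (x axis), both in CPM per kb of exon, in each of the 9 libraries, coloured by group and lettered by library. The 3 WT RT libraries lie below the dashed line of equal levels and the 6 cold libraries above it.

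Klf9, a KLF that promotes adipocyte differentiation, was at 93.6, 78.2 and 88.3 CPM in WT RT and at 161, 167 and 185 CPM in WT Cold. The groups were well apart, with a 2.09-fold rise (log2 fold change 1.06, SE 0.11, adjusted p = 0.000641 with limma). Klf15, which acts in amino acid breakdown and in adipocyte gene expression, was at 46.5, 28.3 and 36.6 CPM in WT RT and at 62.0, 80.1 and 106 CPM in WT Cold. It rose in all cold libraries with the widest spread among the risers, 2.35-fold (log2 fold change 1.24, SE 0.24, adjusted p = 0.00849 with limma). Klf11, a cofactor of PPARγ in brown and beige adipocytes, was at 17.0, 16.6 and 13.5 CPM in WT RT and at 11.99, 10.3 and 17.1 CPM in WT Cold. The groups overlapped through library C of WT Cold, which was as high as the highest WT RT library (log2 fold change -0.20, SE 0.20, adjusted p = 0.482 with limma), and without that library the value was -0.43 (adjusted p = 0.0396). Without library B of WT Cold it was -0.04 (adjusted p = 0.906) and without library A of WT Cold -0.14 (adjusted p = 0.714).

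Tle3 was at 28.1, 31.7 and 35.4 CPM in WT RT and at 45.9, 43.4 and 62.0 CPM in WT Cold. Every cold library was higher, with a 1.67-fold rise (log2 fold change 0.74, SE 0.17, adjusted p = 0.0156 with limma), which lay just above the threshold without library A of WT RT (0.64, adjusted p = 0.0568) or library B of WT RT (0.72, adjusted p = 0.0531). Prdm16 was at 12.7, 18.7 and 23.2 CPM in WT RT and at 12.7, 13.8 and 9.17 CPM in WT Cold. Library A of WT RT was as low as the cold libraries, and the difference did not pass (log2 fold change -0.51, 95% interval -1.08 to 0.07, adjusted p = 0.165 with limma). Without library A of WT RT the log2 fold change was -0.76 (adjusted p = 0.0482), whereas it was -0.28 (adjusted p = 0.428) without library C of WT RT and -0.35 (adjusted p = 0.296) without library C of WT Cold.

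The antagonists were also set against each other within a library. Prdm16:Tle3 per length was 0.564, 0.738 and 0.820 in WT RT and 0.345, 0.396 and 0.185 in WT Cold, lower in each cold library. In the libraries labelled GCN2 KO Cold it was 0.654, 0.550 and 0.420, above every WT Cold library and overlapping WT RT. Both differences from WT Cold had p = 0.1 in the two-sided exact permutation test, which cannot go lower here.

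The EBF factors gave no difference that passed in WT Cold against WT RT. Ebf1, a broad adipogenic factor, was at 68.7, 63.7 and 73.3 CPM in WT RT and at 77.2, 79.9 and 41.4 CPM in WT Cold. Library C of WT Cold was the lowest of all 9 libraries, and the log2 fold change of -0.02 (95% interval -0.55 to 0.50, adjusted p = 0.945 with limma) became 0.26 (adjusted p = 0.0815) without it. Ebf2, which opens brown-selective enhancers, was at 30.5, 31.0 and 34.3 CPM in WT RT and at 30.6, 26.9 and 29.8 CPM in WT Cold. Its interval was the tightest of the 4 that did not pass (log2 fold change -0.05, 95% interval -0.29 to 0.19, adjusted p = 0.744 with limma).

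Some exons are shared with a gene on the opposite strand, and the kit named in the methods does not mark strand. In GENCODE M21, Cebpb shared 312 bases (20.7% of its exon length) with Tmem189, Cebpd shared 562 bases (15.0%) with Spidr, and Cebpa shared 51 bases (1.94%) with Gm45091. In WT Cold against WT RT, Tmem189 had a log2 fold change of 0.78 (SE 0.14, adjusted p = 0.00554 with limma) and Spidr one of -0.44 (SE 0.15, adjusted p = 0.0624). That of Gm45091 was -2.43 (SE 0.35, adjusted p = 0.00273 with limma). Tmem189 thus rose with Cebpb and Gm45091 fell with Cebpa, whereas the value of Spidr was opposite in sign to that of Cebpd. In mean normalized counts of WT RT and then WT Cold, Gm45091 was at 86.3 and 15.2 and Cebpa at 20105 and 10210. Tmem189 was at 673 and 1170 and Cebpb at 6972 and 11413, and Spidr at 216 and 158 and Cebpd at 402 and 935. How much of each count came from the shared bases was not tested.

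**Figure D3:**
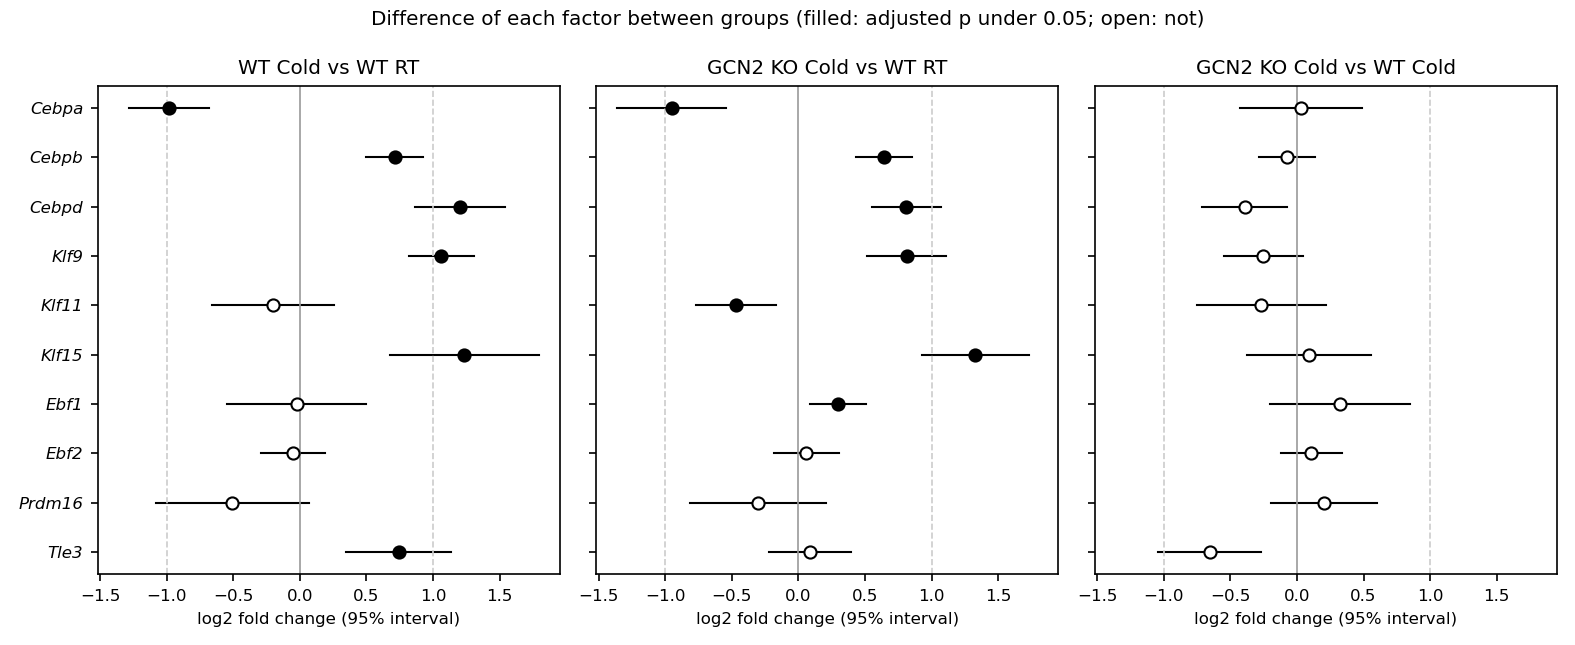
log2 fold change of each factor (x axis, with 95% interval) in the 3 comparisons, from limma, with filled points for adjusted p under 0.05 and dashed lines at -1 and 1. In both comparisons with WT RT, Cebpa lies left of 0 and Cebpb, Cebpd, Klf9 and Klf15 lie right of it, and in GCN2 KO Cold vs WT Cold every point is open.

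The libraries labelled GCN2 KO Cold were then set against the same WT RT libraries, to see how the factors stood after cold under the other label. Here 7 of the 10 passed, 5 higher and 2 lower, against 34.2% of the 16560 genes tested (16.4% higher and 17.8% lower), and 1, Klf15, was called by both thresholds, against 10.6%. On the CPM scale Cebpa at -1.16 (adjusted p = 0.00179 with limma) was called as well. Since both cold groups are set against the same 3 libraries, their values are given side by side and their likeness is not independent support. The log2 fold changes were -0.95 for Cebpa (SE 0.18, adjusted p = 0.00459 with limma), 0.64 for Cebpb (SE 0.09, adjusted p = 0.00148), 0.81 for Cebpd (SE 0.11, adjusted p = 0.0013), 0.81 for Klf9 (SE 0.13, adjusted p = 0.00226) and 1.33 for Klf15 (SE 0.18, adjusted p = 0.0011). For these 5 genes every library labelled GCN2 KO Cold lay on one side of every WT RT library, and in normalized counts 7 of the 10 factors did not overlap, against 49.2% of all genes.

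Klf11 and Ebf1 passed here and not in wild type, and whether the 2 comparisons differ for these genes is answered only by the direct comparison below, in which neither passed. Klf11 was at 8.97, 9.46 and 11.1 CPM in the libraries labelled GCN2 KO Cold, below every WT RT library (log2 fold change -0.47, SE 0.13, adjusted p = 0.0245 with limma). It did not pass without library A or B of WT RT or library A or B of GCN2 KO Cold, with adjusted p from 0.0635 to 0.0863. Ebf1 was at 72.0, 72.0 and 75.7 CPM, which overlapped WT RT in CPM though not in normalized counts (log2 fold change 0.30, SE 0.09, adjusted p = 0.0362 with limma). On the CPM scale its log2 fold change was 0.10 (adjusted p = 0.36), and it did not pass without library A or B of WT RT or without library A, B or C of GCN2 KO Cold, with adjusted p up to 0.116. Ebf2, Prdm16 and Tle3 had log2 fold changes of 0.06, -0.30 and 0.09, and in CPM those of Ebf2 and Tle3 were -0.14 and -0.12. Tle3, at 25.6, 30.0 and 32.3 CPM, overlapped its WT RT libraries (95% interval of the log2 fold change -0.22 to 0.40, adjusted p = 0.646 with limma).

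The direct comparison asked which factors differed between the cold groups by the GCN2 label. With limma, 0 of the 10 passed, against 0.405% of the 16312 genes tested, and 2 had an unadjusted p under 0.05, against 15.3% of all genes. DESeq2 on the recovered reads passed 1, Tle3, and edgeR's quasi-likelihood test passed 0. The median log2 fold change was -0.02 over the 10 and -0.003 over all genes. The 2 with an unadjusted p under 0.05, Tle3 and Cebpd, were also the ones whose groups did not overlap in normalized counts, both lower under the GCN2 KO Cold label, as were 10.7% of all genes. In CPM, Klf9 and Cebpb were apart and lower as well, with log2 fold changes of -0.37 (adjusted p = 0.189 with limma) and -0.19 (adjusted p = 0.285). On that scale the median log2 fold change of all genes was -0.12, and the share of all genes apart in CPM was not counted.

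Tle3 was at 45.9, 43.4 and 62.0 CPM in WT Cold and at 25.6, 30.0 and 32.3 CPM in the libraries labelled GCN2 KO Cold. The groups were apart and the latter overlapped WT RT, with a level 1.57-fold lower than in WT Cold (log2 fold change -0.66, SE 0.16, 95% interval -1.04 to -0.27). The adjusted p was 0.149 with limma, 0.15 with edgeR and 0.0142 with DESeq2, and 0.0326 with all 3 groups in a limma fit of CPM. When single libraries were left out, the log2 fold change ran from -0.75 to -0.48, with adjusted p from 0.146 to 0.354. Without library C of both cold groups, where muscle markers were lowest, it was -0.56 (adjusted p = 0.0981), an alternative chosen after the data were seen.

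Cebpd was at 30.9, 25.7 and 35.5 CPM in WT Cold and at 21.1, 23.0 and 20.1 CPM in the libraries labelled GCN2 KO Cold. The groups did not overlap but lay close (log2 fold change -0.39, 95% interval -0.71 to -0.07, adjusted p = 0.241 with limma). Klf9 was at 148, 142 and 109.5 CPM under the GCN2 KO Cold label, all below the WT Cold range of 161 to 185 CPM though overlapping it in normalized counts, with library C the lowest (log2 fold change -0.25, 95% interval -0.55 to 0.04). For Cebpa, at 379, 352 and 231 CPM, and Klf15, at 84.8, 84.6 and 69.6 CPM, the cold groups overlapped (log2 fold changes 0.03 and 0.09), and both values turned negative in CPM (-0.09 and -0.03).

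For the other members the intervals say how large a difference these libraries leave room for. The 95% interval of the log2 fold change was -0.28 to 0.14 for Cebpb, -0.12 to 0.34 for Ebf2, -0.43 to 0.49 for Cebpa and -0.38 to 0.56 for Klf15. It was wider for Klf11 (-0.75 to 0.22), Ebf1 (-0.20 to 0.85) and Prdm16 (-0.19 to 0.60). Thus no bound of these 7 intervals reached a full log2 unit, and those of Cebpb and Ebf2 were the narrowest.

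Relatives of the 10 factors are read against the shares of all genes that passed, which were 13.6% higher and 14.1% lower in WT Cold against WT RT. Of 7 C/EBP family genes, members included, 4 were higher and 1 lower in WT Cold against WT RT (median log2 fold change 0.32), the added risers being Cebpz (0.68) and Cebpg (0.32). Ddit3, the C/EBP homologous protein of stress responses, had a value of 0.15 and did not pass. Of 14 KLF genes tested, 5 were higher and 1 lower (median 0.36): besides Klf9 and Klf15 these were Klf4 (0.67), Klf6 (0.41), Klf3 (0.37) and, lower, Klf16 (-0.71). Of 5 Groucho/TLE genes, Tle3 was higher and Tle2 lower (-0.85).

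The brown-fate lists are short, and with 27.7% of all genes past the test their counts do not set them apart. Of 6 EBF genes and EBF2 partners none passed with limma, with values from -0.56 for Zfp423, a repressor of EBF2 activity, to 0.40 for Ebf4. Of 8 genes of the PRDM16 complex, 1 passed, Med1, a Mediator subunit (log2 fold change 0.38). Of 28 other adipocyte transcription factors, 8 were higher and 6 lower (median 0.13), with the largest values in Ppargc1a, the cold-induced coactivator (2.70), Zbtb16 (2.26), Foxo1 (1.23) and Srebf1, which drives fatty acid synthesis (-1.23). Pparg itself had a log2 fold change of 0.23 and did not pass, and neither did Nr3c1, the glucocorticoid receptor (-0.07).

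Lists of general adipocyte, brown-selective and white-selective genes did not move one way. Of 21 general adipocyte genes, 5 were higher and 7 lower in WT Cold (median log2 fold change -0.06), from Acaca and Fasn, enzymes of fatty acid synthesis (-2.06 and -2.04), to Lpl, the lipoprotein lipase (1.55). Of 17 brown-selective genes, 8 were higher and 4 lower (median 0.21), led by Dio2, which makes active thyroid hormone (3.63), Ntrk3 (-2.52) and Epsti1 (-1.83), and Ucp1 was at 1.02. Of 14 white-selective genes, 3 were higher and 4 lower (median -0.04), led by Nnmt (2.70), Igfbp3 (1.62) and Trim14 (-1.22).

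Klf9, Klf15 and Cebpd are known to respond to glucocorticoids, and Cebpb to cAMP as well, so lists of each response were read beside them. Of 20 glucocorticoid-induced genes, none of them a member, 13 were higher and 0 lower in WT Cold with limma (median log2 fold change 1.16), against 13.6% and 14.1% of all genes, with the largest values in Fkbp5 (2.52), Zbtb16 (2.26) and Cdkn1a (2.21). Of 14 cAMP-induced genes, 7 were higher and 0 lower (median 0.68), led by Nr4a3 (3.19), Ppargc1a (2.70) and Fosb (1.29), and Per1 and Dusp1 stand in both lists. Against the same WT RT libraries, those labelled GCN2 KO Cold had 14 of the glucocorticoid-induced genes higher and 2, Pdk4 (-0.79) and Angptl4 (-0.74), lower (median 1.13), and 7 of the cAMP-induced genes higher and 0 lower (median 0.62), against 16.4% higher and 17.8% lower of all genes. The lists were chosen with earlier results of these data known, so these counts are descriptions. Hormone levels were not analysed here, and whether either response moved the factors was not tested.

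In GCN2 KO Cold against WT Cold, no gene of these 11 lists passed the test with limma, and list medians ran from -0.25 for the cAMP-induced genes to 0.24 for the EBF genes and partners. In that comparison 2 of the 8 skeletal muscle markers passed, both lower, with a list median of -2.04. The 7 brown adipocyte markers had a median of 0.34 and none passed.

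**Figure D4:**
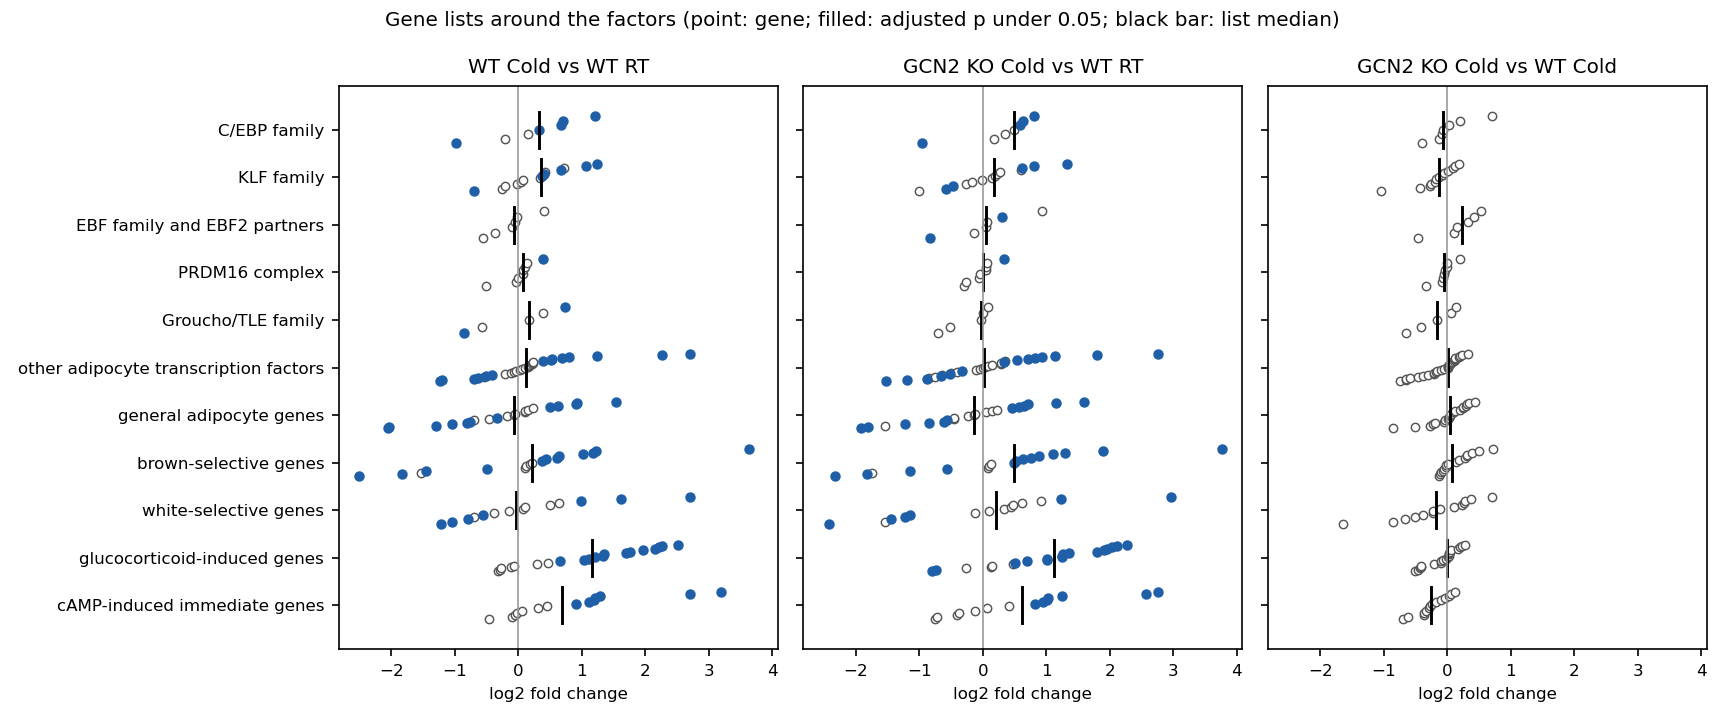
log2 fold change (x axis) of every tested gene of 11 gene lists (rows) in the 3 comparisons, with filled points for adjusted p under 0.05 and a black bar at each list median. The glucocorticoid-induced genes have medians of 1.16 and 1.13 against WT RT, and no filled point appears in GCN2 KO Cold vs WT Cold.

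Across the 9 libraries, Klf9, Cebpd, Klf15 and Cebpb varied together. Pearson's r of log2 CPM was 0.96 between Klf9 and Cebpd, 0.91 between Klf9 and Klf15 and 0.85 between Cebpd and Klf15. Cebpb gave 0.87 with Cebpd, 0.86 with Klf9 and 0.79 with Klf15, whereas Cebpa and Cebpb gave -0.86. These are descriptions over 9 libraries that share their groups, and much of each value is the step between WT RT and the cold groups. Among 14045 genes with a mean of at least 1 CPM, those most like Cebpd included Tead1 (r = 0.99) and Fmo2 (0.98). Those most like Klf9 were C330007P06Rik (0.99), Hipk1 (0.98) and Pde4d (0.98), and those most like Klf15 were Kyat3 (0.97), Slc25a33 (0.97) and Mir6236 (0.97).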

How the data were processed

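RNA-seq of brown adipose tissue from 9 mice was analysed. The authors trimmed reads (Trimmomatic 0.36), aligned them with STAR 2.5.2b, counted unique reads in exons with featureCounts (Subread 1.5.2) and compared groups with DESeq2. The build in the submitters' processing notes is GRCm39. The deposited tables hold, per gene and library, a signal made by dividing read counts by the library's size factor in that table. Further deposited columns with log2 fold changes and p-values of the authors' own comparisons were not used. Columns carry library codes that give the group but no mouse, and 0 columns came from other samples.

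Whole reads were recovered for 100% of values (tolerance 0.01). Limma 3.58.1 (R 4.3.3, mean-variance trend, Benjamini-Hochberg) was run within each table on log2(value + 1), which understates changes of low genes. Levels across tables are CPM of recovered reads. On those reads DESeq2 1.42.0 called 1423, 209 and 1732 genes and edgeR 4.0.16 called 1383, 33 and 1772 (WT Cold against WT RT, then GCN2 KO Cold against WT Cold and against WT RT). The fits were tested on simulated data. Exon lengths are from GENCODE M21 (GRCm38). At this depth the spread between libraries, not counting, limits precision.

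The members and gene lists were chosen with earlier results of these data known. All members and, per list, the largest passing changes and the relatives a sentence needed were named. Alternatives varied tool, pseudocount (0.5, 8), a mean filter of 50, trend, scaling, groups fitted, thresholds and single libraries. A gene that the naming rule selected is not reported here.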

Additional observations from a re-analysis of the deposited data

How the results depend on the processing

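No paired analysis was possible because the groups held different mice, and the columns carry library codes and no replicate numbers. The number of factors past the test was 5 to 7 in WT Cold against WT RT and 5 to 7 in GCN2 KO Cold against WT RT when each library was left out in turn, and 0 to 0 in GCN2 KO Cold against WT Cold, where DESeq2 and the fit of all 3 groups each gave 1. With a log2 fold change over 1 also required, 3, 0 and 1 passed. Genes called were 1357, 42 and 1754. Without the fold threshold they were 4624, 66 and 5657, and with each library left out 1090 to 1854, 3 to 22 and 1424 to 1875. In GCN2 KO Cold against WT Cold the count was 209 with DESeq2, 179 with 3 groups, 6 without the trend and 130 without library C of both cold groups (added after seeing the data), and each of the 6 libraries left out moved it: 5, 3 and 22 for WT Cold A, B and C and 18, 5 and 13 for GCN2 KO Cold A, B and C. The cause was not tested.

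Signs turned only for differences that had not passed. In WT Cold against WT RT, Ebf1 was 0.0236 with DESeq2 and 0.0192 with edgeR, from -0.19 to 0.26 with a library left out, and Ebf2 from -0.0950 to 0.0317. In GCN2 KO Cold against WT Cold, CPM and the fit of 3 groups gave -0.0874 and -0.0874 for Cebpa, -0.0259 and -0.0259 for Klf15 and -0.00808 and -0.00811 for Ebf2, and with a library left out Cebpa ran from -0.10 to 0.24 and Klf15 from -0.12 to 0.30. In GCN2 KO Cold against WT RT, both gave -0.14 for Ebf2, -0.12 for Tle3 and -0.0113 and -0.0115 for Eif2ak4, and Tle3 ran from -0.00891 to 0.20 with a library left out. The values of Eif2ak4 in WT Cold against WT RT did not pass without the trend (adjusted p = 0.0502 with limma) or in 4 of the 6 settings with a library left out. Depth limited none of the 10 factors as much as their spread: the lowest value of any of them in any library was 8.97 CPM (Klf11).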
